A study of Sus scrofa with 3 samples.

Results

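The genes described here make cholesterol from acetyl-CoA, sense the sterol level of the cell, and take up or move sterol. They were chosen by symbol from a list of 30 names, older and newer symbols together, which stand for 27 genes. Of these, 24 had a value in all 3 libraries, out of 34579 features in the files, and all 24 are named below. All 24 had a value of at least 1 FPKM (fragments per kilobase of transcript, scaled by library) in every library, so none was left out by the filter on low values. The list does not hold every step of the pathway. The files label INSIG2 as a non-coding RNA and the other 23 genes as mRNA, although INSIG2 is known to encode a protein.

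Liver RNA came from male Chinese Wuzhishan miniature pigs in 3 groups, whose labels give an age of 6 to 7 months, which per the study's methods was their age on arrival, before acclimation and diet. IM pigs were intact males that had a sham operation, CM pigs were castrated, and CMT pigs were castrated and injected each week with 10 mg/kg testosterone propionate from the day of surgery. All 3 groups received the same high-fat and high-cholesterol (HFC) diet for 12 weeks, normal feed to which 0.5% sodium cholate, 15% lard, 1.5% cholesterol and 10% egg yolk powder had been added, so every value below is from an animal on dietary cholesterol, and no group on normal feed was compared here. Per the labels, RNA of 3 pigs was mixed in equal amounts into 1 library per group. The study's methods describe larger groups and pools of the pigs of each group, so the number of pigs behind a library is uncertain. With 1 library per group there was no replicate check, no test between groups was possible and the spread between pigs is unknown, so every ratio compares pools.

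Animal cells build cholesterol from acetyl-CoA through mevalonate, isoprenoid diphosphates, squalene and lanosterol. Transcription of most of these enzymes is driven by SREBP2, a factor that SCAP carries out of the endoplasmic reticulum when membrane sterol is low and that INSIG proteins hold back when sterol is high. The liver is a main site of this synthesis, and dietary cholesterol is known to lower it.

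The depth came to 32200213 recovered reads in IM and 36127825 in CM, with 25420896 in CMT, and the 24 genes rested on 28 to 7656 reads in a library. Ratios are of the deposited FPKM values, with 95% exact binomial intervals on the recovered reads, which cover counting error only. A gene is counted as past the fold at a ratio of at least 1.5 in either direction. The 7 hepatocyte markers with a row, albumin among them, all lay far above 1 FPKM, and their summed level was 1069318 in IM, with 763983 in CM and 874337 in CMT. Their log2 ratios had a median of -0.54 between CM and IM and 0.43 between CMT and CM. Among them, TF alone was higher in CM than in IM, at 118067 against 115328. Albumin alone was lower in CMT than in CM, at 690375 in IM, with 476360 in CM and 445509 in CMT. The summed level of 6 T and NK cell markers was 405 in IM against 561 in CM and 313 in CMT, and that of 2 cholangiocyte markers 40.0, 68.9 and 45.7. The 5 macrophage markers summed to 4692 in IM, with 3738 in CM and 4261 in CMT, the 5 endothelial ones to 1079, 954 and 1004, the 6 stellate cell ones to 1453, 1554 and 1301, the 4 B cell ones to 37.2, 47.3 and 37.7, and the 3 cycling cell ones to 201, 303 and 250.0. The cycling cell sum was made up mostly of its most abundant marker, MKI67 (194, 248 and 234). CDK1 was at 3.64, 35.2 and 9.71, and CCNB1 at 3.51, 19.7 and 6.71. The cycling markers had a median log2 ratio of 2.49 between CM and IM and -1.56 between CMT and CM. Among the macrophage markers, MARCO was at 414, 82.8 and 317, and AIF1 alone was higher in CM than in IM. No marker was at 0 in any library. The levels of these lists differed between the same libraries as the sterol genes, and their part in the ratios below was not tested. In bulk liver, fewer hepatocytes and less RNA per hepatocyte cannot be told apart, nor can either be told from differences in single marker genes.

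The value was lower in CM than in IM for 19 of 24 genes, beside 52.0% of the 15613 mRNA features above the FPKM minimum. With the libraries scaled to recovered reads, it was lower for all of the 19 but ACAT2, NSDHL and HSD17B7. The share of all mRNA features on that side was not computed on that scale, where their median log2 ratio was 0.26. As deposited, 8 genes were at least 1.5-fold lower (STARD4, INSIG1, SC5D, PMVK, TM7SF2, NPC1L1, EBP and MVK), while none was at least 1.5-fold higher. With recovered reads as the scale, 5 were at least 1.5-fold lower, beside 6.42% of all, and with equal FPKM sums 5, beside 6.87%. As deposited, 12.1% of all these mRNA features passed this fold downward in CM and 11.1% passed it upward. The median log2 ratio of the 24 genes was -0.41, beside -0.020 over all these mRNA features. The genes spread from -1.33 for STARD4 to 0.30 for INSIG2, with an SD over genes of 0.47.

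The values in CMT were higher than in CM for 22 of 24 genes, beside 51.5% of all mRNA features above the FPKM minimum. With the libraries scaled to recovered reads, they were higher for all of the 22 but NPC1, while the median log2 ratio of all mRNA features was -0.23. As deposited, 17 genes were at least 1.5-fold higher. Over all mRNA features, 12.1% were at least 1.5-fold higher in CMT. Scaled to recovered reads, 7 of the 24 genes and 6.82% of all mRNA features passed this fold, and scaled to equal FPKM sums, 7 genes and 6.73% did. The median log2 ratio of the 24 genes was 0.71, beside 0.013 over all. NPC1L1 was at least 1.5-fold lower in CMT than in CM, a direction taken by 13.5% of mRNA features, and NPC2 was lower by less than that. CM versus IM and CMT versus CM share the CM library, so they are not independent of each other.

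CMT and IM differed in both directions. Of the 24 genes, 6 were at least 1.5-fold higher in CMT (HSD17B7, FDPS, CYP51, SQLE, MVK and HMGCS1), and INSIG1 and NPC1L1 were at least 1.5-fold lower. The shares over all mRNA features were 6.67% higher and 10.1% lower. The median log2 ratio of the 24 genes was 0.34, beside -0.0072 over all. CM was the lowest of the 3 libraries for 18 of 24 genes and for 38.7% of all mRNA features, and it was the highest for 1 sterol gene, NPC2, and for 35.2% of all. CMT was the highest library for 19 of the 24 and for 33.2% of all.

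**Figure D1:**
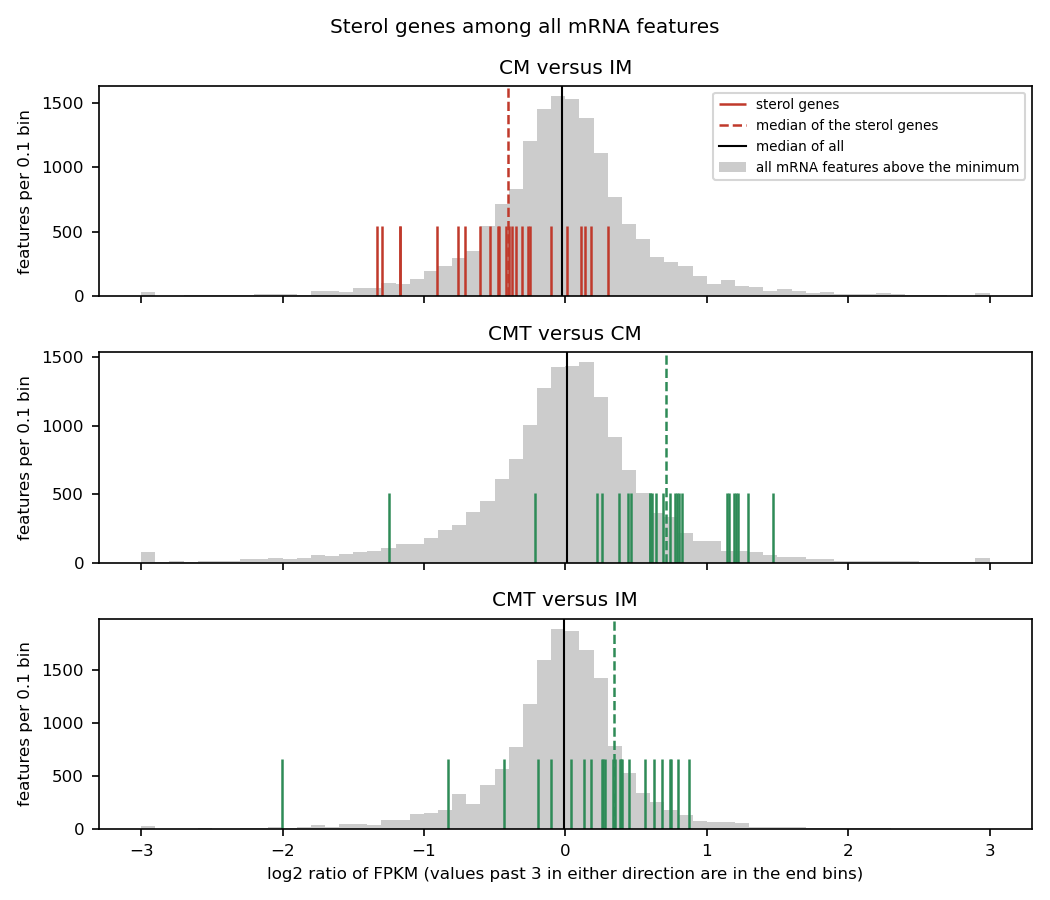
Each panel shows the number of mRNA features with at least 1 FPKM in all libraries (grey bars, per 0.1 of log2 ratio), the 24 sterol genes (short coloured lines), their median (dashed) and the median of all features (black). The dashed line lies at -0.41 in the top panel, at 0.71 in the middle and at 0.34 in the bottom one, while the black line stays near 0 in each panel.

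The first part of the pathway runs from acetyl-CoA to phosphorylated mevalonate. ACAT2, the cytosolic thiolase that joins acetyl-CoA units, had an FPKM of 56.4 in IM against 47.5 in CM and 74.2 in CMT. HMGCS1, the cytosolic synthase of the next step, was at 32.6 in IM, with 36.9 in CM and 50.3 in CMT. HMGCS1 was thus lowest in IM, and for CM versus IM the deposited ratio of 1.13 (0.916 to 1.41) cannot be told from equal levels by counting. ACAT2 also had a CM to IM interval that includes equal levels, 0.651 to 1.09. The kinases further along had larger differences.

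MVK, which adds the first phosphate to mevalonate, was at 459 in IM against 302 in CM and 738 in CMT. Its level in IM was 1.52-fold that in CM (interval 1.44 to 1.60), and in CMT it was 2.44-fold that in CM (2.32 to 2.57). CMT also exceeded IM, by 1.61-fold (1.53 to 1.69). PMVK, which adds the second phosphate, was at 825 in IM, with 367 in CM and 847 in CMT. CM stood alone as the low library for PMVK: IM was 2.25-fold higher (2.04 to 2.48), and CMT lay within counting error of IM at a ratio of 1.03 (0.939 to 1.12). Of these adjacent kinases, only MVK had CMT above IM beyond counting error. Within a library, where scaling has no part, the ratio of PMVK to MVK was 1.80 in IM against 1.21 in CM and 1.15 in CMT.

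**Figure D2:**
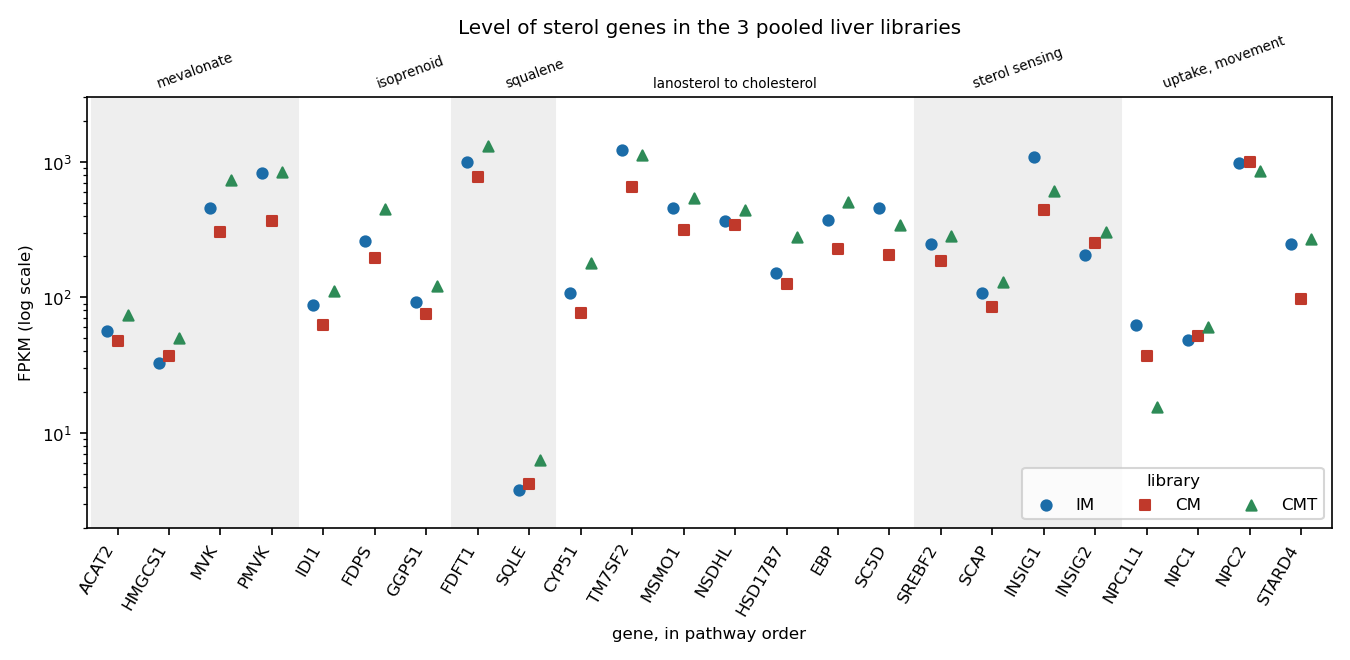
FPKM of the 24 sterol genes (log axis) in the IM (circles), CM (squares) and CMT (triangles) libraries, 1 pooled library each, with the genes in pathway order and shaded by role. SQLE stands below all others at 3.79 to 6.32 FPKM, and the CM square lies lowest for 18 genes.

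The isoprenoid enzymes had the same order of libraries, CM lowest and CMT highest. IDI1, which interconverts the isoprenoid building blocks, was at 87.1 in IM, with 62.9 in CM and 111 in CMT. FDPS, which makes farnesyl diphosphate, was at 259 in IM against 196 in CM and 449 in CMT. FDPS had the larger difference, with CMT 2.29-fold above CM (2.11 to 2.48) and 1.74-fold above IM (1.60 to 1.89). GGPS1 makes geranylgeranyl diphosphate, which leaves the sterol branch for protein prenylation. It was at 92.7 in IM, with 75.1 in CM and 121 in CMT, and CMT was 1.61-fold above CM (1.44 to 1.81). None of these 3 genes was 1.5-fold lower in CM than in IM.

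Squalene synthesis and oxidation differed far more in level than in ratio. FDFT1, squalene synthase and the first enzyme committed to sterols, was at 999.5 in IM against 771 in CM and 1316 in CMT, so that 94.4% of mRNA features had a lower level in IM. SQLE, the squalene epoxidase, was at 3.79 in IM, with 4.17 in CM and 6.32 in CMT, and only 6.80% of mRNA features had a lower level in IM. FDFT1 stood at 264 times the FPKM of SQLE in IM, 185 times in CM and 208 times in CMT. SQLE rested on few reads, 28 for IM, 42 for CM and 38 for CMT. The intervals of its ratios were wide, 0.667 to 1.84 for CM versus IM and 0.998 to 2.82 for CMT versus IM, and a difference was not detectable at this depth, although its CMT to IM ratio of 1.67 is past the fold. FDFT1, with at least 3703 reads in each library, was 1.71-fold higher in CMT than in CM (1.63 to 1.79) and its CM to IM ratio was 0.771 (0.737 to 0.807).

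In the last part, from lanosterol to cholesterol, all 7 genes were lower in CM than in IM as deposited, beside 52.0% of all mRNA features. All but NSDHL and HSD17B7 were also lower with the libraries scaled to recovered reads. All 7 were higher in CMT than in CM under every scaling, beside 51.5% of all mRNA features as deposited. CYP51, the lanosterol demethylase, was at 107 in IM against 77.0 in CM and 179 in CMT. CMT was 2.33-fold above CM (2.16 to 2.51) and 1.68-fold above IM (1.56 to 1.81). TM7SF2, a sterol reductase, was among the most abundant of the 24 genes, at 1212 in IM, with 646 in CM and 1127 in CMT. The CM to IM ratio of TM7SF2 was 0.533 (0.501 to 0.566), and CMT lay slightly below IM, at a ratio of 0.930 (0.876 to 0.988).

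MSMO1 and NSDHL act together in removing methyl groups from the sterol ring. MSMO1 was at 453 in IM against 313 in CM and 542 in CMT, and CMT was 1.73-fold above CM (1.63 to 1.84). NSDHL was at 365 in IM, with 340 in CM and 443 in CMT. NSDHL had the smallest differences against CM of the 7 genes, and equal levels in CM and IM lie within its counting interval (0.930, 0.840 to 1.03). HSD17B7, a ketosteroid reductase of the same part of the pathway, was at 151 in IM against 126 in CM and 277 in CMT. HSD17B7 had the largest CMT to IM ratio of the 24 genes, 1.83 (1.63 to 2.06), and 96.9% of mRNA features had a lower one.

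EBP, an isomerase that shifts a double bond of the sterol, was at 371 in IM, with 226 in CM and 506 in CMT. The level of EBP in CM was 0.610 times that in IM (0.559 to 0.665), and in CMT it was 2.23-fold that in CM (2.05 to 2.43). SC5D, the desaturase that follows EBP, was at 459 in IM against 204 in CM and 339.8 in CMT. Its level in IM was 2.25-fold that in CM (2.11 to 2.40). SC5D was also lower in CMT than in IM, at a ratio of 0.741 (0.695 to 0.790), so that CMT stood between the other libraries. The ratio of SC5D to EBP within a library was 1.24 in IM, with 0.900 in CM and 0.672 in CMT.

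LSS and DHCR7, enzymes of the list without a row under their symbol, were found as 2 features named by gene number, which RefSeq pairs with these symbols. They were matched after the data were seen and are not counted among the 24. MVD, also on the list, had no row under its symbol and was not found by gene number, so it has no value here. LSS, which closes the sterol rings, was at 253 in IM against 157 in CM and 276 in CMT, with IM 1.61-fold above CM (1.48 to 1.76). DHCR7, a reductase of the last steps, was at 216 in IM, with 160 in CM and 201 in CMT, and IM was 1.35-fold above CM (1.23 to 1.49). For LSS, CMT was 1.76-fold above CM (1.61 to 1.92), and for DHCR7 it was 1.26-fold above CM (1.13 to 1.39). Both were lowest in CM, as were most genes under their own symbol.

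Taking the 15 synthesis enzymes among the 24 without GGPS1, 13 had a lower value in CM than in IM, beside 52.0% of all mRNA features. All of these 13 but ACAT2, NSDHL and HSD17B7 were also lower when scaled to recovered reads. All 15 had a higher value in CMT than in CM, beside 51.5% of all mRNA features, and 13 were past the fold, beside 12.1% of all. With the libraries scaled to recovered reads, 6 of the 15 were past the fold in CMT versus CM (MVK, PMVK, FDPS, CYP51, HSD17B7 and EBP), beside 6.82% of all. In CM versus IM, 5 of the 15 were at least 1.5-fold lower as deposited, beside 12.1% of all, and 3 (PMVK, TM7SF2 and SC5D) when scaled to recovered reads, beside 6.42% of all. The exceptions in CM versus IM were HMGCS1 and SQLE. The FPKM values of the 15 summed to 5840 in IM against 3718 in CM and 7006 in CMT, which was 0.0718%, 0.0545% and 0.0876% of the mRNA sum of each library. These shares do not depend on how the libraries were scaled to each other, but they do depend on the abundant plasma protein genes that make up much of the sum.

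**Figure D3:**
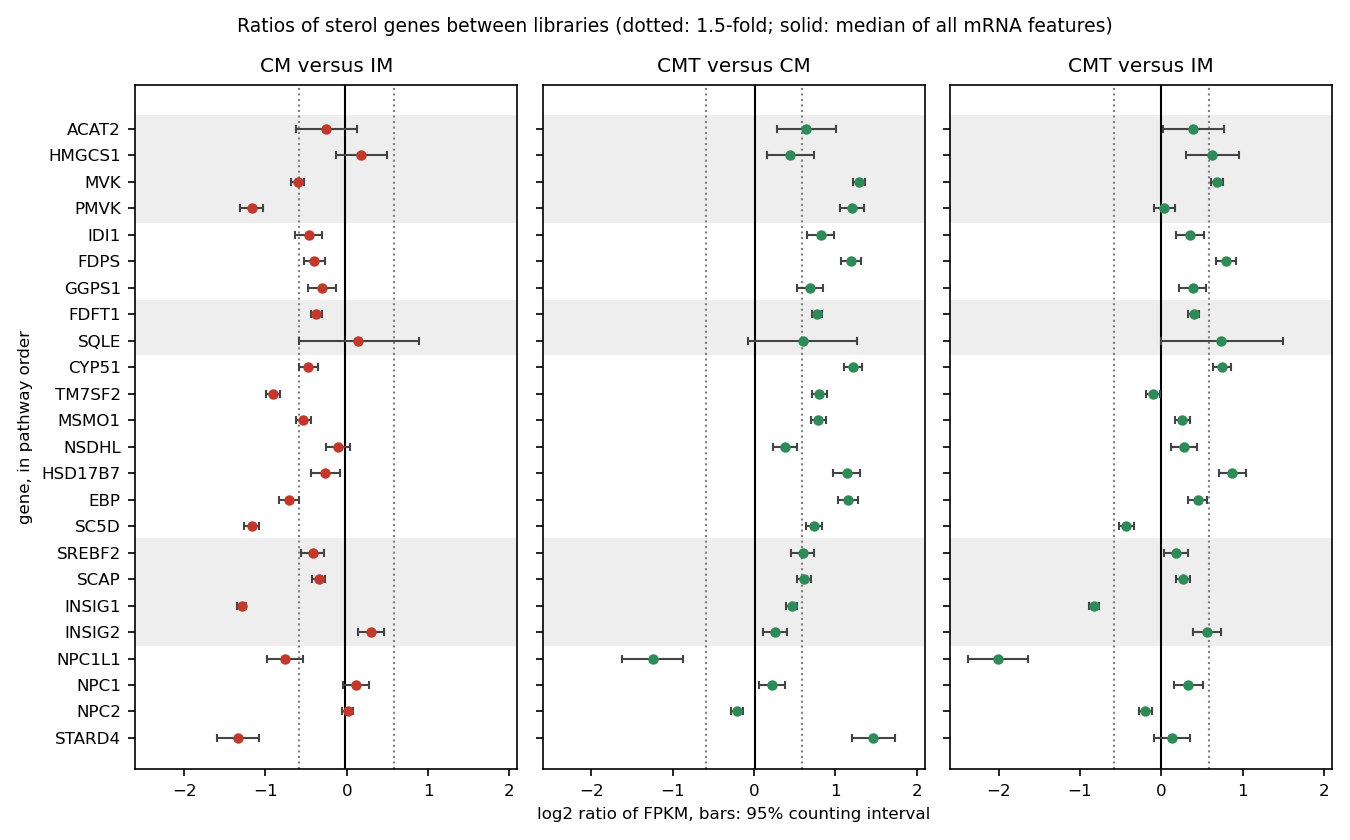
Log2 ratio of FPKM for each of the 24 genes (points) with its 95% counting interval (bars) in the 3 comparisons, in pathway order. Dotted lines mark 1.5-fold, and the solid line marks the median of all mRNA features. Most points lie left of the solid line for CM versus IM and right of it for CMT versus CM, and INSIG1 and NPC1L1 lie left of the dotted line for CMT versus IM.

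The sterol-sensing genes did not move as a block. SREBF2, which encodes SREBP2, was at 248 in IM, with 186 in CM and 281 in CMT. SCAP, the escort of SREBP2, was at 108 in IM against 85.3 in CM and 130.4 in CMT. SREBF2 and SCAP had nearly equal ratios. CMT was 1.51-fold above CM for SREBF2 (1.37 to 1.67) and 1.53-fold above CM for SCAP (1.44 to 1.62).

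INSIG1 and INSIG2 encode related proteins that retain SCAP in the endoplasmic reticulum, and INSIG1 is itself a well known SREBP target. INSIG1 was at 1075 in IM, with 439 in CM and 605 in CMT, from 7656, 4256 and 3500 reads. Its level in IM was 2.45-fold that in CM (2.36 to 2.55) and 1.78-fold that in CMT (1.71 to 1.85), so that IM stood apart from both libraries of castrated pigs. For CM versus IM, 2.71% of mRNA features had a lower ratio than INSIG1, and for CMT versus IM 5.68% had. INSIG2 was at 205 in IM against 252 in CM and 302 in CMT, lowest in IM, with a CMT to IM ratio of 1.47 (1.31 to 1.66). The INSIG1 to INSIG2 ratio within a library was therefore 5.25 in IM, with 1.74 in CM and 2.004 in CMT. INSIG1 also parted from MVK. The ratio of INSIG1 to MVK was 2.34 in IM against 1.45 in CM and 0.819 in CMT.

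The genes of sterol uptake and movement did not share a direction. NPC1L1, a membrane protein of cholesterol absorption that the liver of some species also makes, was at 62.2 in IM, with 36.8 in CM and 15.5 in CMT, from 375, 302 and 76 reads. The level of NPC1L1 in IM was 1.69-fold that in CM (1.45 to 1.98), and in CM it was 2.37-fold that in CMT (1.84 to 3.09). Against IM, the value in CMT was 4.01-fold lower (3.13 to 5.20), and 0.576% of mRNA features had a lower CMT to IM ratio. NPC1L1 was the gene of the 24 for which CMT lay farthest from IM.

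NPC1 and NPC2, which carry cholesterol out of the lysosome, differed by less than 1.5-fold between the libraries. NPC1 was at 48.3 in IM against 52.2 in CM and 60.9 in CMT. NPC2 was at 984 in IM, with 995 in CM and 859 in CMT, and the counting interval of CM to IM, 0.964 to 1.06, includes equal levels. STARD4, a soluble carrier of sterol between membranes, was at 245 in IM against 97.3 in CM and 269 in CMT. STARD4 had the largest differences against CM of the 24 genes: IM was 2.52-fold higher (2.11 to 3.02) and CMT 2.76-fold higher (2.30 to 3.32). CMT lay within counting error of IM for STARD4, at a ratio of 1.10 (0.939 to 1.28).

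The other genes of the pathway were taken as 5 lists with 45 genes, of which 36 had a row, all above the FPKM minimum. For CM versus IM, 5 of the 36 were at least 1.5-fold lower and 2 at least 1.5-fold higher, beside 12.1% and 11.1% of all mRNA features, with a log2 median of -0.08. For CMT versus CM, 5 were at least 1.5-fold higher and 3 lower, beside 12.1% and 13.5% of all, with a median of 0.18. For CMT versus IM, 4 were higher and 1 lower, beside 6.67% and 10.1% of all, with a median of 0.06. The medians that follow are on the deposited scale, on which the synthesis enzymes had -0.47 for CM against IM and 0.80 for CMT against CM. The acetyl-CoA supply genes had a median log2 ratio of -0.34 against IM over 5 genes and 0.48 for CMT against CM. The 9 genes for the release and turnover of SREBP had medians of 0.09 and 0.19 in these comparisons, and the 5 genes of other sterol steps and electron supply had -0.13 and 0.19. The 7 genes of other isoprenoid branches had -0.08 and -0.12, and the 10 genes of sterol transport after uptake had 0.25 and 0.08.

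Of the 36, 4 genes were past 1.5-fold in opposite directions in CM versus IM and CMT versus CM, on the deposited scale. The share of all mRNA features with such a reversal was not computed, and both comparisons share the CM library. With the libraries scaled to recovered reads, ACAT1 was no longer past the fold in either comparison, while AACS, MBTPS1 and GRAMD1B still were in both. AACS, which makes acetoacetyl-CoA from ketone bodies in the cytosol for lipid synthesis, was at 509 in IM against 111 in CM and 822 in CMT. Its level in IM was 4.60-fold that in CM (4.31 to 4.91), and in CMT it was 7.43-fold that in CM (6.98 to 7.91), larger differences than for any of the 24 genes. MBTPS1, the first protease that cuts SREBP, was at 449 in IM, with 245 in CM and 507 in CMT. ACAT1, the mitochondrial thiolase, was at 4579 in IM against 2689 in CM and 4738 in CMT. GRAMD1B, a sterol transfer protein, went the other way, at 5.49 in IM, with 21.0 in CM and 5.37 in CMT. SREBF1, which encodes the related factor SREBP1, was at 917 in IM against 1169 in CM and 1823 in CMT, and was chosen for mention after its values were seen.

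The ratios of CM to the other libraries depended on the scaling. The FPKM values summed to 8660405 in IM but to 7247699 in CM, with 8603712 in CMT. With the libraries scaled to their recovered reads, every log2 ratio of CM to IM was 0.28 larger and every ratio of CMT to CM 0.24 smaller. The median of all mRNA features then lay at 0.26 for CM against IM and at -0.23 for CMT against CM. Over all features, 22.0% were then at least 1.5-fold higher in CM than in IM and 6.42% lower, and for CMT versus CM 6.82% were higher and 22.4% lower. On that scale the 24 genes had a median of -0.13 against IM, and CMT against CM came to 0.47. For ACAT2, NSDHL and HSD17B7 the ratio of CM to IM, and for NPC1 that of CMT to CM, then lay on the other side of equality. Counting intervals were computed on the deposited scale only, and where they include equal levels of CM and IM, this need not hold on another scale. The log2 ratios of these genes on recovered reads were 0.46 for HMGCS1, 0.42 for SQLE, 0.30 for NPC2, 0.18 for NSDHL and 0.031 for ACAT2. The distance between the sterol genes and all features is not touched by scaling, at -0.39 between CM and IM, 0.70 between CMT and CM and 0.35 between CMT and IM.

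**Figure D4:**
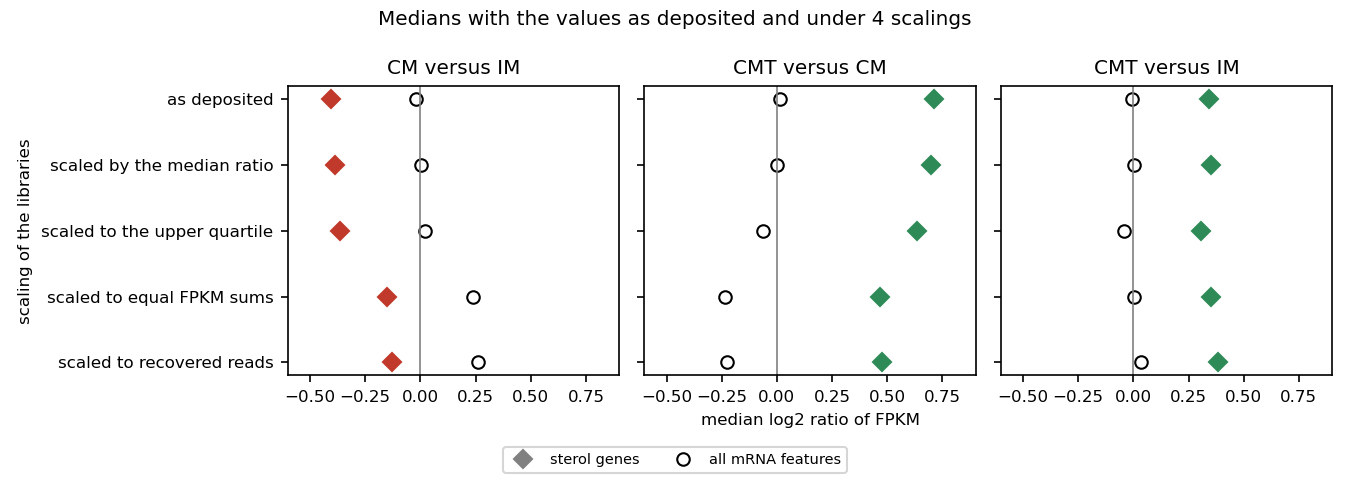
Median log2 ratio of the 24 sterol genes (diamonds) and of all mRNA features with at least 1 FPKM (open circles) with the values as deposited and under 4 scalings, in the 3 comparisons. With equal FPKM sums or recovered reads both medians shift together by about 0.25 in the comparisons with CM, and the diamonds stay left of the circles for CM versus IM and right of them in the other panels.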

How the data were processed

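Liver RNA of IM, CM and CMT pigs was sequenced as 1 pooled, poly-A selected library per group. The authors checked paired-end reads with FastQC, aligned them with TopHat and deposited an FPKM value per feature. The program that counted reads, the annotation and the handling of near-identical copies are not given in the sources used here. FPKM values were used as deposited, without rescaling or pseudocount. Since values within a gene are whole multiples of a step, reads were recovered as the smallest transcript length up to 10000 bases that made all 3 values whole within 0.002, with library divisors of 2.51, 3.42 and 2.04. This held for 23106 of 24277 features above 0 and for all 24 genes. Reads that share a divisor may be understated, which widens the intervals, and both mates of a pair may have been counted, which narrows them. The recovery was tried on simulated data built from features with recovered reads and the same divisors, so it could not test the divisors or the features without recovered reads. No p-value was computed, because each group had 1 library.

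The 24 genes and the other gene lists were chosen with earlier results of these data known. All 24 are named, as are other pathway genes past 1.5-fold in opposite directions in CM versus IM and CMT versus CM. Alternatives were a pseudocount of 1, an FPKM minimum of 10 or none, a 2-fold threshold, the interval added to the fold, and scaling by the median ratio, the upper quartile, equal sums or recovered reads. RefSeq's gene table of Sscrofa11.1, another build than the files', served only for the names of LSS and DHCR7, so no coordinates are given. Promoter motifs were not analysed, and some genes of the pathway are not reported here. Scripts ran in Python 3.11.15 (scipy 1.17.1, pandas 2.3.3, numpy 2.4.6, matplotlib 3.10.9).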

Additional observations from a re-analysis of the deposited data

How the results depend on the processing

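Values from 1 library per group carry no replicate error, and the scaling of the CM library and the fold threshold moved the results. With equal FPKM sums, the 24 genes had a median log2 ratio of -0.15 between CM and IM and 0.47 between CMT and CM, 5 genes passed 1.5-fold downward in CM, 7 passed it upward in CMT relative to CM, and 2 had CM as their highest library. With recovered reads, these were -0.13, 0.47, 5, 7 and 2. The values as deposited gave -0.41, 0.71, 8, 17 and 1. The shares of all mRNA features past 1.5-fold in these directions were 6.87% and 6.73% with equal FPKM sums. They were 6.42% and 6.82% with recovered reads, and 12.1% and 12.1% as deposited. A threshold of 2-fold left 4 genes lower in CM than in IM, 7 higher in CMT than in CM, and 0 higher and 1 lower in CMT than in IM. The share of all mRNA features at 2-fold was not computed, so these 2-fold counts stand without a baseline. The other counts and medians moved by less than 1.5 times or by less than the median counting error, under the pseudocount, the FPKM minimum of 10 or none, the interval added to the fold, the median ratio, the upper quartile and, chosen after seeing the data, the addition of LSS and DHCR7 or the removal of INSIG2. SQLE rested on 28 to 42 reads, and depth limits what can be said of it. No paired analysis was possible because each group had 1 library and the results come from no test.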
